A study of Homo sapiens with 12 samples.

Results

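The HOXA genes and cofactors examined here were 10 genes out of the 60754 in each deposited table, namely HOXA3, HOXA4, HOXA5, HOXA6, HOXA7, HOXA9, HOXA10, MEIS1, PBX3 and MEF2C. They were chosen by name as targets of the MLL fusion protein carried by Molm-14 cells. RNA sequencing was performed on Molm-14 and HL-60, a pair of human lines of acute myeloid leukemia (AML), after 36 h with duocarmycin SA (DSA), a bacterial product that attaches itself to adenine bases in DNA. There were 6 groups with 2 libraries each. Molm-14 cells received a low dose of 11.1 pM or a high dose of 100 pM DSA, and HL-60 cells a low dose of 112.7 pM or a high dose of 500 pM DSA. Control cells of each line were labelled as given no treatment, while the study's methods describe vehicle. The labels shorten Molm-14 to M14 and give its cell type as acute myeloid leukemia. Each line is a single established culture with its own set of mutations, so a difference between the lines is a difference between 2 cultures and not between MLL-rearranged leukemia and other AML. The study's methods also name a different medium and serum level for each line, which cannot be told apart from the line itself. Nothing in the labels says that the libraries of a group came from separate cultures, and the p-values then measure only the spread between these libraries, which may be technical.

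HOX genes encode transcription factors with a homeodomain and lie in clusters, in the order in which they are used along the body axis. In blood, the HOXA genes are active in stem and progenitor cells and are shut down as myeloid cells mature. When the gene for the histone methyltransferase MLL (KMT2A) is broken and joined to a partner, MLLT3 (AF9) in Molm-14, the fusion protein holds on to HOXA genes, MEIS1, PBX3 and MEF2C and draws the elongation machinery and the methyltransferase DOT1L to them. MEIS1 and PBX3 belong to the TALE homeodomain family and bind DNA together with HOXA9, and MEF2C is a MADS box factor of myeloid and lymphoid progenitors.

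The 7 HOXA members lie together on the minus strand of chromosome 7 between positions 27106184 and 27180261 (GRCh38), with HOXA3 at the lower and HOXA10 at the upper coordinate. MEIS1 spans positions 66433452 to 66573869 on the plus strand of chromosome 2. PBX3 spans positions 125747345 to 125967377 on the plus strand of chromosome 9, and MEF2C positions 88717117 to 88904257 on the minus strand of chromosome 5. The part of MLL kept in its fusions holds a CXXC domain, which binds CG dinucleotides that are not methylated. The start regions of HOXA7, HOXA9, HOXA10 and MEIS1 are therefore shown, each as the 300 bases that run from before to just after an annotated start, 5′ to 3′ on the strand of the gene, with every CG in capitals. HOXA9 and its neighbours HOXA7 and HOXA10 are shown because HL-60 cells had reads of both neighbours and hardly any of HOXA9 between them, and MEIS1 because its reads in HL-60 cells were as few.
HOXA7 (chr7:27156626-27156925, minus strand): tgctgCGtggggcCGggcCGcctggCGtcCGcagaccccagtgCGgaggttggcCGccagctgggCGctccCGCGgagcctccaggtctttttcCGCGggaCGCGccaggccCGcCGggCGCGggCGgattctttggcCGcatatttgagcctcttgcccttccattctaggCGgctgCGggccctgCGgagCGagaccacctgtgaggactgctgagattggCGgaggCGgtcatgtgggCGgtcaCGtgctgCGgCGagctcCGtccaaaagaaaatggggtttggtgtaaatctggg
HOXA9 (chr7:27165488-27165787, minus strand): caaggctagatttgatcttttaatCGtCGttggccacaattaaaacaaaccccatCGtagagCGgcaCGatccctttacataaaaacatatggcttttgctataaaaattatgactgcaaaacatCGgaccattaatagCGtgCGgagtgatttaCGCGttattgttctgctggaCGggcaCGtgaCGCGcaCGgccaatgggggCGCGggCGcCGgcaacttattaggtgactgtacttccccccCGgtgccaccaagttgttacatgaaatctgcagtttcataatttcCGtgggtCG
HOXA10 (chr7:27179812-27180111, minus strand): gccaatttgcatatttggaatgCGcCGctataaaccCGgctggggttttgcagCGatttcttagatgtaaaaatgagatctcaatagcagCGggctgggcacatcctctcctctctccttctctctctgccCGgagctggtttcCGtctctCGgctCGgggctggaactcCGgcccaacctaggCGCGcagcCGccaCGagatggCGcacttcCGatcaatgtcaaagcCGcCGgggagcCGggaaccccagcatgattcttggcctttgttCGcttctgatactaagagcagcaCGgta
MEIS1 (chr2:66434875-66435174, plus strand): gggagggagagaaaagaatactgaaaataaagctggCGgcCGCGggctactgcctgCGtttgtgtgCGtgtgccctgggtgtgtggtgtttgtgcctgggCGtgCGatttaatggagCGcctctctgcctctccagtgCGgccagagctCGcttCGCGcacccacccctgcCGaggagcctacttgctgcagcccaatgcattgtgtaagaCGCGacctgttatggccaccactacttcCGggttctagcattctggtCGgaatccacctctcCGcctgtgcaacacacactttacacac
The sequences are from RefSeq on GRCh38.p14, where 9 of the 10 members matched a start region, 22 regions in all. CG is its own reverse complement, so both strands hold the same sites. The HOXA7 region held 31 CG, the HOXA9 region 22, the HOXA10 region 21 and the MEIS1 region 18. The median was 14 over all 35116 regions of this length, of which 96.0% held at least 1. The share of all regions with fewer CG ran from 55.5% for MEIS1 to 79.3% for HOXA7. These 4 do not stand for all member regions. Among the others, PBX3 held 43 CG and a second HOXA10 region 25. Those of HOXA3 ran from 0 to 29 CG and those of MEF2C from 1 to 32. A CG in the sequence says nothing of whether it was methylated or bound in these cells.

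The deposited totals were between 21177424 and 63927449 expected counts per library, and the mitochondrial share was 1.47% to 5.46%, highest in HL-60 cells at 500 pM. All 10 members passed the filter on low counts among the 13422 protein-coding genes tested, and 4 of them (HOXA3, HOXA6, HOXA9 and MEIS1) had a mean under 20 counts in HL-60 libraries and high levels in Molm-14 alone. The myeloid label held for both lines. All 12 myeloid markers had reads in every library, although the monocyte gene CD14 had only 2 to 6 counts in Molm-14 libraries. Of the 8 erythroid and megakaryocyte markers, 5 were at 0 in every Molm-14 library and 5 in every HL-60 library, and the pigment cell genes MLANA, TYR and SOX10 were at 0 in all 12. Some markers of other lineages had clear reads. Among them were the B cell factor PAX5 (1936 to 2370 counts) and the keratins KRT18 (974 to 1169 counts) and KRT8 (145 to 220 counts) in Molm-14 libraries, the platelet integrin ITGA2B (59 to 273 counts) and the B cell gene CD79A (74 to 185 counts) in HL-60 libraries, and MITF, with 111 to 399 counts over the 12 libraries.

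The first comparison asked how far the 2 lines differed in these genes before any drug. The 6 members with a mean of at least 20 counts in HL-60 libraries were HOXA4, HOXA5, HOXA7, HOXA10, PBX3 and MEF2C. All 6 were higher in Molm-14 control cells than in HL-60 control cells in edgeR's quasi-likelihood test (adjusted p < 0.05) and differed by more than 2-fold. Among all genes tested, 40.1% were higher in Molm-14 and 37.1% differed in either direction by more than 2-fold. The other 4 were high in Molm-14 alone, so they are given as counts and as ratios with their counting error. Levels are given as CPM, the counts of a gene relative to the total of its library after scaling by the trimmed mean of M-values (TMM), and every difference as a log2 fold change with its standard error (SE).

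HOXA9, the homeobox gene most closely tied to MLL fusions, had 118 and 120.1 CPM in Molm-14 controls, against 0.0268 and 0.0848 CPM in HL-60 controls. These came from 7752 counts over both Molm-14 libraries and 6 counts over both HL-60 libraries. The ratio of the 2 levels was 1910, with a 95% interval of 877 to 5207 that covers counting error only. No HL-60 library of any group held more than 5 counts of HOXA9. MEIS1, which binds DNA beside HOXA9, had 36.6 and 35.9 CPM in Molm-14 controls and 0.107 and 0.119 CPM in HL-60 controls. The ratio was 317 (177 to 636, counting error only). HOXA3, at the lower end of the cluster members, had 12.1 and 12.9 CPM in Molm-14 controls and 0.0805 and 0.254 CPM in HL-60 controls, a ratio of 67.1 (42.2 to 114, counting error only). HOXA6, an inner gene of the cluster, had 7.40 and 8.04 CPM in Molm-14 controls and 0.429 and 0.238 CPM in HL-60 controls, a ratio of 24.8 (17.1 to 37.1, counting error only). For these 4 genes the fold rests on few HL-60 reads, and the libraries of the 2 lines stood far apart. Its size depended on the HL-60 control library for 3 of them. The fitted log2 difference was 5.60 without HL-60 control replicate 1 and 7.22 without HL-60 control replicate 2 for HOXA3, 5.00 and 4.16 for HOXA6, and 10.39 and 11.92 for HOXA9.

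MEF2C had the highest CPM of the members in Molm-14 controls, with 215 and 216 CPM, against 1.05 and 0.899 CPM in HL-60 controls (log2 difference 7.81, SE 0.0825, adjusted p = 2.5e-23). PBX3, a partner of HOX proteins, had 88.7 and 88.2 CPM in Molm-14 controls and 6.89 and 7.06 CPM in HL-60 controls (log2 difference 3.66, SE 0.0621). HL-60 cells thus had reads of PBX3 with hardly any of HOXA9 or MEIS1. HOXA10, next to HOXA9 in the cluster, had 109 and 103 CPM in Molm-14 controls and 4.18 and 3.92 CPM in HL-60 controls (log2 difference 4.72, SE 0.0639). HOXA5 differed by 3.26 (SE 0.103) on the log2 scale.

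The smallest differences among these 6 were those of HOXA7 and HOXA4. HOXA7 had 18.2 and 19.0 CPM in Molm-14 controls and 6.11 and 5.85 CPM in HL-60 controls (log2 difference 1.64, SE 0.0762, adjusted p = 1.34e-13). HOXA4 had 2.05 and 2.48 CPM in Molm-14 controls and 1.07 and 1.09 CPM in HL-60 controls (log2 difference 1.07, SE 0.205, adjusted p = 8.9e-05), which was 0.93, under 2-fold, without Molm-14 control replicate 2. In both genes the 2 Molm-14 libraries lay above the 2 HL-60 libraries.

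**Figure D1:**
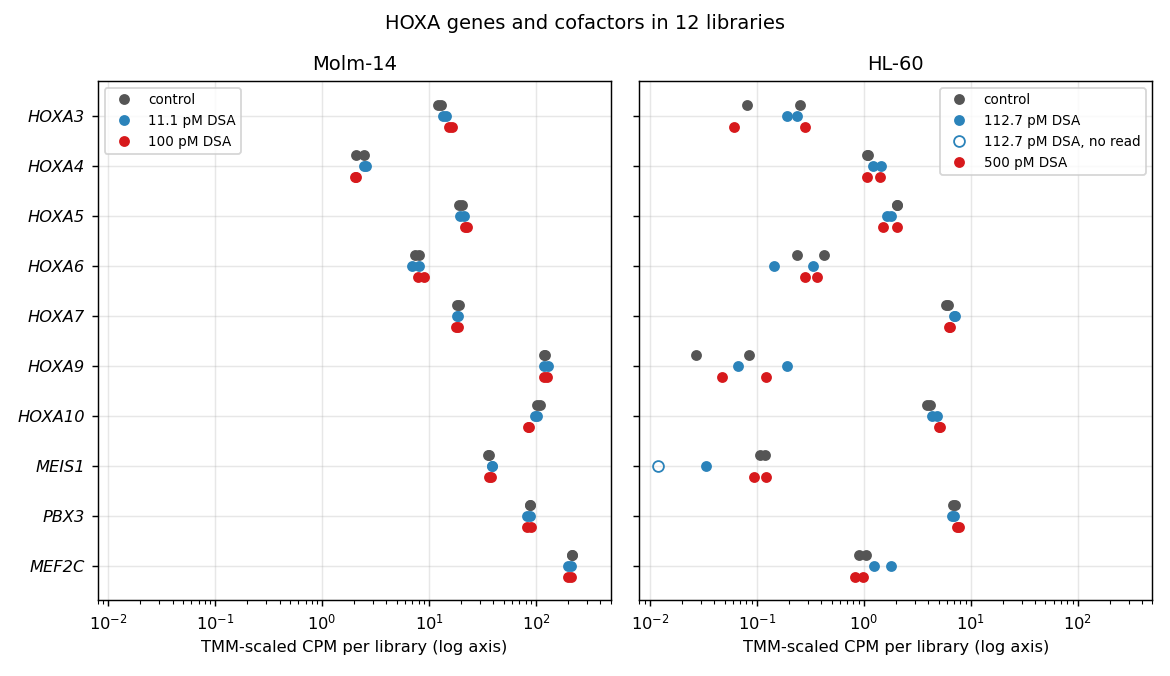
Level of each of the 10 members in each of the 12 libraries, as TMM-scaled CPM on a log axis, with Molm-14 on the left and HL-60 on the right. Points are libraries coloured by dose, and an open circle marks a library with no read of MEIS1. The 6 Molm-14 libraries of each gene lie close together, while HOXA9, MEIS1 and HOXA3 are spread at under 0.3 CPM in HL-60.

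Several transcripts share exon bases with the members in GENCODE release 44, and the sources used here do not state whether counting used the strand, so reads may be divided among overlapping genes. The antisense gene HOXA10-AS overlaps exons of HOXA9 and HOXA10 and had 195 to 222 counts in Molm-14 libraries, against 0 to 1 in HL-60 libraries. ENSG00000272801, which overlaps HOXA3 and HOXA6 on their own strand, had 110 to 163 counts in Molm-14 and 0 in HL-60 libraries. MEF2C-AS1 had 79 to 111 counts in Molm-14 and 0 to 1 in HL-60 libraries. ENSG00000257184, which shares 397 exon bases with HOXA9 and 368 with HOXA10, had only 2 to 9 counts in Molm-14 and 0 in HL-60 libraries. The microRNA gene MIR196B, inside a HOXA9 exon, was at 0 in every library. Those overlapping genes named here that had reads thus had more of them in Molm-14.

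To compare genes with each other, the deposited TPM values were used, which are relative to the library total and account for transcript length. In Molm-14 controls the order was HOXA9 (106 TPM), MEF2C (81.2), HOXA10 (72.7), PBX3 (47.3), HOXA5 (16.7), MEIS1 (14.5), HOXA7 (12.6), HOXA6 (10.4), HOXA3 (8.14) and HOXA4 (2.5). The libraries of HOXA5 overlapped those of MEIS1, and those of MEIS1 overlapped those of HOXA7, so these neighbours did not differ beyond their spread. The same order by mean held in Molm-14 cells at 11.1 pM and at 100 pM. In HL-60 controls the order was PBX3 (3.90 TPM), HOXA7 (3.71), HOXA10 (2.63), HOXA5 (1.54), HOXA4 (1.12), HOXA6 (0.54), MEF2C (0.365), MEIS1 (0.14), HOXA9 (0.085) and HOXA3 (0.075). There PBX3 overlapped HOXA7, HOXA6 overlapped MEF2C, and MEIS1, HOXA9 and HOXA3 each overlapped the next. At 500 pM, HOXA10 (4.21 TPM) was listed just above HOXA7 (4.11 TPM) in HL-60 cells, with HOXA10 libraries above those of HOXA7.

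Over the 10 HOXA genes reported here, HOXA9 made up 39.7% of the summed TPM in Molm-14 controls, against 0.599% in HL-60 controls. HOXA10 made up 27.3% in Molm-14 and 18.6% in HL-60 controls, and HOXA7 4.73% in Molm-14 and 26.1% in HL-60 controls. The summed level was 266 TPM in Molm-14 and 14.2 TPM in HL-60 controls. HL-60 cells therefore had little RNA of these genes, most of it from HOXA7, HOXA10 and HOXA11, with a gap at HOXA9. The outer genes HOXA13 and HOXA11 were higher in Molm-14, by 4.03 and 2.76 on the log2 scale.

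**Figure D2:**
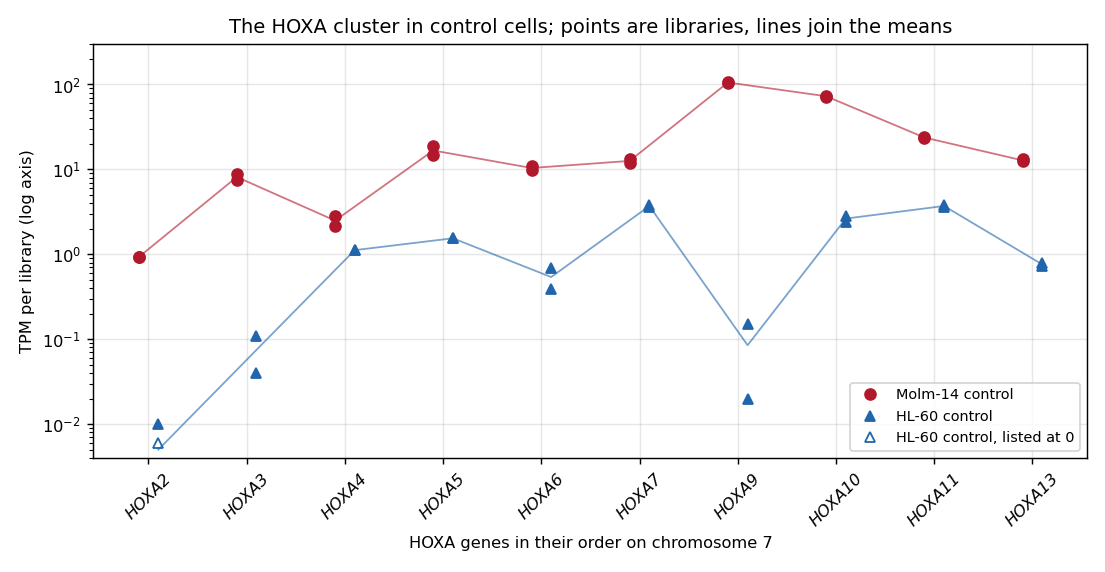
TPM of the 10 HOXA genes reported here in control cells on a log axis, in their order on chromosome 7. Circles are the 2 Molm-14 libraries, triangles the 2 HL-60 libraries, and an open triangle marks a library listed at 0. Molm-14 peaks at HOXA9 (106 TPM), where HL-60 has 0.085 TPM between HOXA7 (3.71 TPM) and HOXA10 (2.63 TPM).

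The next comparisons asked what DSA did to the members in Molm-14 cells. At 11.1 pM none of the 10 members passed the test in either direction, beside 1.21% of all genes. By edgeR 0 of them had an unadjusted p under 0.05, and DESeq2 and limma-voom called 0 as well. At 100 pM, HOXA10 fell and HOXA3 rose, while the other 8 did not pass, beside 44.8% of all genes that passed (22.9% higher and 21.9% lower). No member changed by more than 2-fold at 100 pM, beside 4.02% of all genes. The log2 fold changes of the members at 100 pM had a median of -0.0015, beside 0.00377 over all genes. Since these are bulk libraries, fewer cells of a type and less RNA per cell cannot be told apart.

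HOXA10, a homeobox factor of blood progenitors, had 109 and 103 CPM in Molm-14 controls, 97.7 and 102 CPM at 11.1 pM and 86.3 and 84.1 CPM at 100 pM. Both libraries at 100 pM lay below all 4 others. The mean was 85.2 ± 1.57 CPM at 100 pM, against 106 ± 4.87 CPM in controls (SD, n = 2 each), and the log2 fold change was -0.31 (SE 0.0443, edgeR adjusted p = 1.11e-05). As a ratio this was 0.804, with a 95% interval of 0.754 to 0.858. HOXA10 also fell at 100 pM against 11.1 pM (log2 fold change -0.23, SE 0.0442, edgeR adjusted p = 0.000379), where it was the only member that passed, beside 38.1% of all genes. At 11.1 pM against control it did not pass (-0.08, adjusted p = 0.472). The fall at 100 pM passed the test under each of the 10 other settings and with each of the 12 libraries left out in turn, with log2 fold changes between -0.36 and -0.27.

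HOXA3 had 12.1 and 12.9 CPM in Molm-14 controls, 13.5 and 14.3 CPM at 11.1 pM and 16.3 and 15.3 CPM at 100 pM. The groups did not overlap, and the log2 fold change at 100 pM against control was 0.33 (SE 0.115, edgeR adjusted p = 0.0244), a ratio of 1.26 (95% interval 1.07 to 1.49). This call was lost in DESeq2 (adjusted p = 0.0989) and when the counts of overlapping genes were added (log2 fold change 0.25, adjusted p = 0.0621). It was also lost without Molm-14 control replicate 1 (adjusted p = 0.15), control replicate 2 (0.0643) or 100 pM replicate 1 (0.154). The 3 other genes whose log2 levels over the 6 Molm-14 libraries were most like those of HOXA3 were SPPL2B, ITPR2 and EIF4A2, with root mean square differences of 0.0291, 0.0351 and 0.0372 among 8981 genes compared after centring.

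HOXA9 did not pass at either dose. Its libraries had 118 and 120.1 CPM in Molm-14 controls, 118 and 129 CPM at 11.1 pM and 120.0 and 126 CPM at 100 pM, and the groups overlapped. The log2 fold change at 100 pM was 0.05, and the 95% interval of the ratio was 0.964 to 1.11. In TPM the mean was 100.2 at 100 pM and 106 in controls, with libraries that overlapped, so the sign of the small difference depended on the scale. MEIS1 had 36.6 and 35.9 CPM in controls, 38.8 and 38.9 CPM at 11.1 pM and 37.8 and 36.1 CPM at 100 pM, and its ratio at 100 pM had an interval of 0.94 to 1.1. The interval was 0.913 to 1.05 for PBX3 and 0.903 to 1.02 for MEF2C. On the CPM scale the intervals of these 4 ratios together ran from 0.903 to 1.11. In TPM, MEF2C had 66.77 and 75.56 at 100 pM, below the 78.3 and 84.03 of controls. PBX3 had 44.93 and 41.69 TPM at 100 pM, below the 46.47 and 48.15 TPM of controls. MEIS1 libraries overlapped in TPM, with 12.82 and 12.97 at 100 pM and 12.55 and 16.51 in controls. The TPM differences were not tested, and the size of these small changes depended on the scale.

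Among the remaining HOXA members, HOXA5 had 22.7 and 21.7 CPM at 100 pM, above the 19.1 and 20.3 CPM of Molm-14 controls, without passing (log2 fold change 0.17, SE 0.077, edgeR adjusted p = 0.0767). It did pass in limma-voom (adjusted p = 0.0392), with library totals as the only scaling (0.0392) and in a fit of the compared groups alone (0.0289). HOXA7 (-0.03), HOXA6 (0.13) and HOXA4 (-0.15) overlapped between 100 pM and control on the CPM scale. HOXA4 had the widest interval of the Molm-14 ratios at 100 pM, 0.678 to 1.2, on 65 to 91 counts per library.

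**Figure D3:**
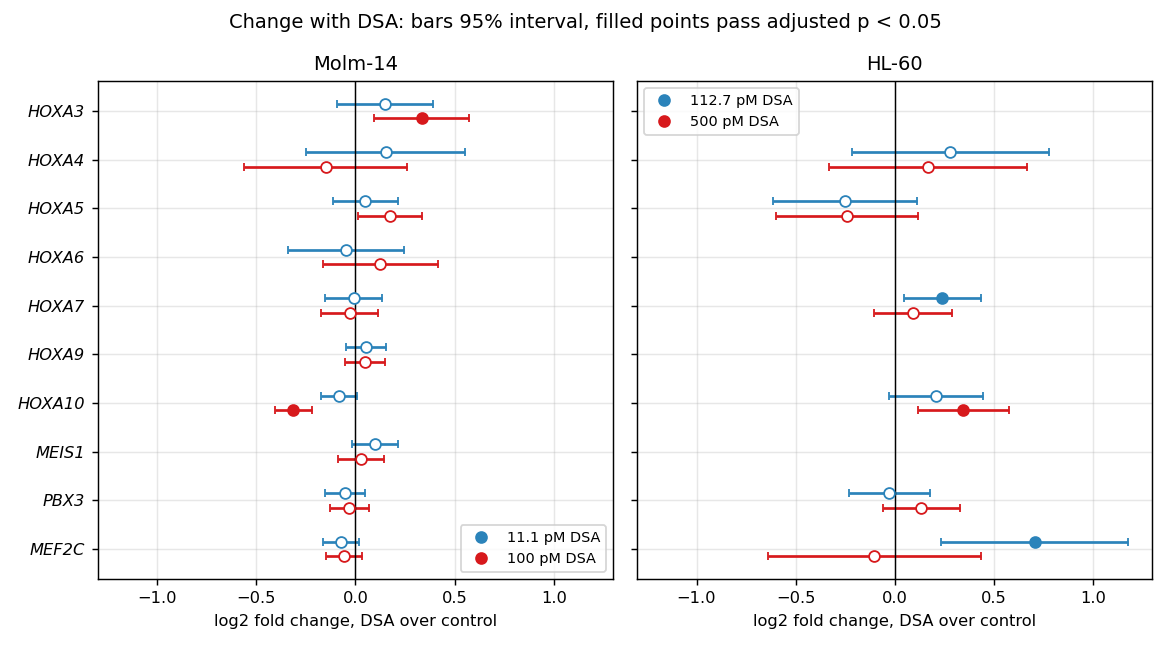
Log2 fold change of DSA over control for each member, with its 95% interval, for Molm-14 on the left and HL-60 on the right. Filled points passed adjusted p < 0.05 and open points did not, and the 4 members with a mean under 20 counts in HL-60 are left out there. In Molm-14, HOXA10 at 100 pM lies at -0.31 and HOXA3 at 0.33, while in HL-60 HOXA10 lies at 0.35 at 500 pM.

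In HL-60 cells, fold changes are given for the 6 members with a mean of at least 20 counts, a limit set after the values were seen. At 112.7 pM, HOXA7 and MEF2C rose and no member fell, beside 24.2% of all genes that were higher and 27.4% that were lower. At 500 pM, HOXA10 was the only member that passed, and it rose, beside 73.6% of all genes that passed (35.8% higher and 37.8% lower). In the HL-60 comparison of 500 pM with 112.7 pM, MEF2C was the only member that passed, and it fell, beside 52.6% of all genes.

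HOXA10 had 4.18 and 3.92 CPM in HL-60 controls, 4.34 and 4.87 CPM at 112.7 pM and 5.15 and 5.10 CPM at 500 pM. Both libraries at 500 pM lay above all 4 others. The mean was 5.12 ± 0.0352 CPM at 500 pM, against 4.05 ± 0.187 CPM in controls (SD, n = 2 each), a log2 fold change of 0.35 (SE 0.108, edgeR adjusted p = 0.00767). The ratio was 1.27, with a 95% interval of 1.09 to 1.49. The size of the rise depended on the scale. In TPM the mean was 4.21 at 500 pM and 2.63 in controls. Over the 10 other settings the log2 fold change ran from 0.32 to 0.53. Without HL-60 control replicate 2 the adjusted p was 0.0763, and without 500 pM replicate 2 it was 0.051. HOXA7 had 6.94 and 7.12 CPM at 112.7 pM, against 6.11 and 5.85 CPM in HL-60 controls (log2 fold change 0.24, SE 0.0929, edgeR adjusted p = 0.0379). The HOXA7 call was lost in 6 of the 10 other settings, with adjusted p of 0.051 to 0.085, and whenever a library of either group was left out (0.0584 to 0.185).

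MEF2C had 1.05 and 0.899 CPM in HL-60 controls, 1.25 and 1.78 CPM at 112.7 pM and 0.983 and 0.829 CPM at 500 pM, on 21 to 53 counts per library. Both libraries at 112.7 pM lay above all 4 others. The log2 fold change was 0.71 at 112.7 pM against control (SE 0.224, edgeR adjusted p = 0.0131) and -0.81 at 500 pM against 112.7 pM (SE 0.259, edgeR adjusted p = 0.0134). Without 112.7 pM replicate 2 these became 0.39 (adjusted p = 0.354) and -0.49 (0.27), and without HL-60 control replicate 2 the first became 0.58 (0.109). Without 500 pM replicate 2 the second was -0.67 (0.129). In limma-voom the adjusted p was 0.0734 for the first and 0.0802 for the second.

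PBX3 had 7.44 and 7.83 CPM at 500 pM, above the 6.89 and 7.06 CPM of HL-60 controls, without passing (log2 fold change 0.13, 95% interval of the ratio 0.958 to 1.26). With library totals as the only scaling, which moved the median of all genes by 0.18 on the log2 scale at 500 pM, PBX3 (0.32, adjusted p = 0.00593) and HOXA7 (0.28, adjusted p = 0.0129) also passed as higher. HOXA5 (-0.24), HOXA4 (0.17) and MEF2C (-0.10) did not pass at 500 pM against control. Of the 4 members with few HL-60 reads, MEIS1 had 4 and 7 counts in controls, 0 and 1 at 112.7 pM and 2 and 4 at 500 pM. HOXA3 had 2 to 15, HOXA6 3 to 16 and HOXA9 1 to 5 counts over the 6 HL-60 libraries. None of these 4 genes passed edgeR's test at either dose. MEIS1 at 112.7 pM came nearest, with an adjusted p of 0.0624 (unadjusted 0.0333), and limma-voom called it lower there (adjusted p = 0.032). MEIS1 passed the filter only through its Molm-14 reads, so neither value is read as a change in HL-60.

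Whether the lines differed in their response was tested as the change in Molm-14 minus the change in HL-60. At the high doses, 100 pM in Molm-14 and 500 pM in HL-60, only HOXA10 passed among the members, beside 55.4% of all genes. Its difference was -0.66 on the log2 scale (SE 0.118, edgeR adjusted p = 9.48e-05), from -0.31 in Molm-14 and 0.35 in HL-60. At the nearly equal doses of 100 pM in Molm-14 and 112.7 pM in HL-60, HOXA10 (-0.52, SE 0.122, adjusted p = 0.00226) and MEF2C (-0.76, SE 0.228, adjusted p = 0.0127) passed in edgeR, beside 37.7% of all genes. The log2 fold changes behind these were -0.31 in Molm-14 and 0.21 in HL-60 for HOXA10, and -0.06 in Molm-14 and 0.71 in HL-60 for MEF2C. HOXA10 in HL-60 started from a level 26.3-fold below that of Molm-14, so the 2 changes are ratios of very different amounts of RNA.

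**Figure D4:**
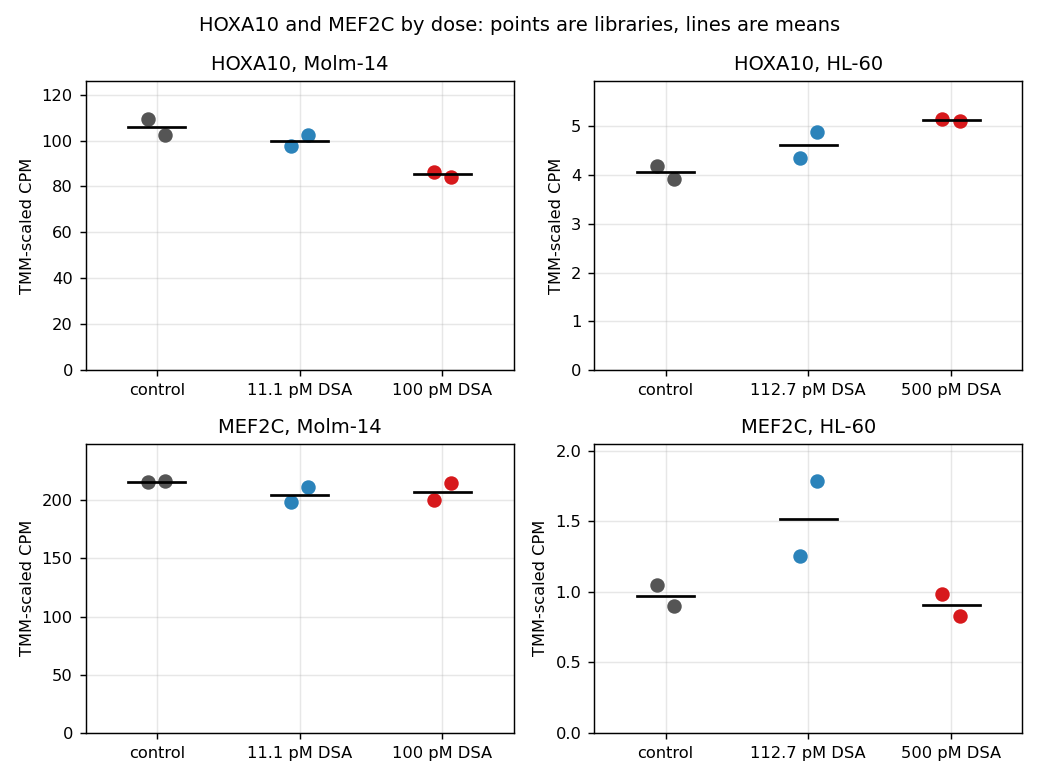
TMM-scaled CPM of HOXA10 (top) and MEF2C (bottom) by dose in Molm-14 (left) and HL-60 (right), with axes from 0 that differ between panels. Points are libraries and lines are means. HOXA10 is at 85.2 CPM at 100 pM against 106 CPM in Molm-14 controls and at 5.12 CPM at 500 pM against 4.05 CPM in HL-60 controls, and MEF2C in HL-60 is highest at 112.7 pM (1.52 CPM).

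Of the 3 other HOXA genes reported here, only HOXA11 passed in Molm-14 cells at 100 pM, beside 44.8% of all genes. It had 39.4 ± 0.55 CPM against 47.0 ± 0.47 CPM in controls (log2 fold change -0.25, adjusted p = 0.00134). HOXA11 lies beside HOXA10, the other HOXA gene that fell, beside 21.9% of all genes that were lower. HOXA13 beyond them did not pass (-0.05, adjusted p = 0.49). With 2 genes lower, their position is not read as a pattern. In HL-60 cells HOXA13 rose, to 4.18 ± 0.49 CPM at 112.7 pM (log2 fold change 0.40, adjusted p = 0.0161) and 4.4 ± 0.06 CPM at 500 pM (0.49, adjusted p = 0.00188), against 3.11 ± 0.08 CPM in controls. HOXA11 did not pass there at 112.7 pM (0.18, adjusted p = 0.132) or 500 pM (-0.13, adjusted p = 0.252). The change in Molm-14 minus that in HL-60 passed for HOXA13 at the high doses (-0.54, adjusted p = 0.0026) and at the nearly equal doses (-0.45, adjusted p = 0.0178), and for HOXA11 at the nearly equal doses (-0.43, adjusted p = 0.00491). In a fit of all gene types, HOTTIP, a non-coding RNA from the HOXA13 end of the cluster, had 4.72 ± 0.54 CPM at 100 pM, against 2.45 ± 0.10 CPM in Molm-14 controls (log2 fold change 0.95, adjusted p = 0.000129). It was the only one of 6 tested non-coding genes of the cluster and cofactors that passed there. HOTTIP also rose in HL-60 cells at 500 pM (1.59, adjusted p = 0.00044), from 14 and 19 counts at 500 pM against 7 and 12 in controls. HOXA11-AS, the antisense partner of HOXA11, also rose in HL-60 cells, by 0.56 at 112.7 pM (adjusted p = 0.0275) and 0.78 at 500 pM (adjusted p = 0.00128), and did not pass in Molm-14 at 100 pM (-0.19, adjusted p = 0.234). These reads cannot be told apart from those of HOXA11 where counting ignored the strand. HOXA10-AS, which overlaps HOXA10, did not pass in Molm-14 (-0.06, adjusted p = 0.783).

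The counts of calls in the lists that follow stand beside 22.9% of all genes that were higher and 21.9% that were lower in Molm-14 at 100 pM, and 35.8% higher and 37.8% lower in HL-60 at 500 pM. Of the 28 genes of the other HOX clusters, 8 had enough reads to be tested. In Molm-14 cells at 100 pM, 1 of them fell (HOXB9) and none rose. In HL-60 cells at 500 pM, 6 of 8 were called higher from very few reads. Among them was HOXC4, with 0.202 ± 0.11 CPM against 0.0304 ± 0.005 CPM in controls. At such levels the count says little of these genes. Of the other TALE homeobox genes, 3 of 7 tested rose in Molm-14 at 100 pM and 2 fell. PBX2, a relative of PBX3, had 121 ± 2.3 CPM at 100 pM and 98.0 ± 3.1 CPM in controls (log2 fold change 0.30, adjusted p = 6.8e-06), and MEIS2, a relative of MEIS1, had 47.8 ± 0.33 CPM at 100 pM and 55.0 ± 0.14 CPM in controls (-0.20, adjusted p = 0.00187). MEIS2 was also present in HL-60 controls, at 20.9 ± 0.88 CPM, where MEIS1 was nearly absent. Of the other MEF2 genes and the class IIa deacetylases that bind MEF2 proteins, 2 of 7 rose (HDAC4, HDAC7) and 2 fell (MEF2A, HDAC9) in Molm-14 at 100 pM. In HL-60 at 500 pM, 3 of the 7 TALE genes rose and 4 fell, and 3 of the 7 MEF2 and deacetylase genes rose and 2 fell.

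Among 21 genes of the machinery that acts with MLL and its fusions, 7 fell and 2 rose in Molm-14 at 100 pM, with a median log2 fold change of -0.10, beside 0.00377 over all genes. PSIP1, the chromatin tether of MLL, had 70.7 ± 1.0 CPM at 100 pM and 104 ± 0.9 CPM in controls (-0.56, adjusted p = 3.05e-08), and DOT1L fell by 0.24 on the log2 scale. In HL-60 cells at 500 pM, 16 of the 21 fell and 2 rose. Of 17 Polycomb genes and H3K27 demethylases, which set and remove the mark that silences HOX genes, 4 rose and 6 fell in Molm-14 at 100 pM, among them EZH2 (-0.43, adjusted p = 5.22e-08), and 5 rose and 8 fell in HL-60 at 500 pM. Of 22 tested other targets of MLL fusions or of HOXA9 and MEIS1, 6 rose and 6 fell in Molm-14 at 100 pM, and 4 rose and 15 fell in HL-60 at 500 pM. In Molm-14, MYC had 438 ± 7.4 CPM at 100 pM and 634 ± 16 CPM in controls (-0.53, adjusted p = 4.55e-10), and FLT3 had 324 ± 4.0 CPM at 100 pM and 397 ± 5.8 CPM in controls (-0.29, adjusted p = 8.64e-06). LMO2 rose in Molm-14 (0.33, adjusted p = 2.01e-06). All these tests were edgeR's, adjusted over all genes.

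The 12 myeloid markers served to check the labels of the lines and do not measure maturation as a set. In Molm-14 cells at 100 pM, where HOXA10 fell, 8 of them rose and 1 fell. Their summed level was 5710 to 5839 CPM at 100 pM, against 4423 to 4514 CPM in controls. The integrin gene ITGAM had 46.7 ± 2.8 CPM at 100 pM and 15.5 ± 0.94 CPM in controls, and lysozyme (LYZ) 984 ± 0.57 CPM at 100 pM and 419 ± 13 CPM in controls (SD, n = 2 each). In HL-60 cells at 500 pM, 5 of the 12 rose and 5 fell, ITGAM rising to 47.4 ± 1.6 CPM, against 4.05 ± 0.07 CPM in controls, while HOXA10 rose. Their summed level was 7737 to 7760 CPM at 500 pM, against 19462 to 19731 CPM in HL-60 controls. The granule enzyme gene MPO had 5888 ± 51.7 CPM at 500 pM and 15677 ± 43.3 CPM in controls. Markers of other lineages also moved in HL-60 at 500 pM. The erythroid and megakaryocyte list summed to 8.42 to 8.43 CPM at 500 pM, against 1.36 to 1.58 CPM in controls, nearly all of it from ITGA2B (180 and 273 counts at 500 pM, 59 and 78 in controls). The B and T cell list summed to 8.91 to 9.03 CPM at 500 pM, against 3.07 to 3.08 CPM in controls, with CD3E at 49 and 86 counts against 13 and 17, and CD79A at 111 and 185 counts against 95 and 146, in libraries of different depth. The fibroblast and epithelial list summed to 3.10 to 4.17 CPM at 500 pM, against 0.78 to 1.10 CPM in controls. The mitochondrial share was 4.10% and 2.72% at 100 pM, against 1.47% and 1.68% in Molm-14 controls. The part of these markers or of the mitochondrial share in the HOXA10 values was not tested.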

How the data were processed

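The data were 12 bulk RNA sequencing libraries, 2 in each of 6 groups. The authors trimmed reads with Trim Galore (0.60), mapped them to hg38 with STAR (2.7) and obtained expected counts for GENCODE release 31 genes with RSEM (1.31). Deposited TPM and FPKM values come from those RSEM runs. TPM served to compare genes and FPKM as the alternative. Of 60754 identifiers, 60261 matched GENCODE release 44, which gave symbols and coordinates.

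Expected counts were rounded. In edgeR 4.0.16 (R 4.3.3), protein-coding genes of level 1 or 2 passed filterByExpr (13422 genes) and were scaled by TMM. One mean per group was fitted over all 12 libraries (6 residual degrees of freedom), and quasi-likelihood tests were adjusted by the Benjamini-Hochberg method over all genes tested. Non-coding genes come from a fit of all gene types (17364 genes). Intervals are 95%. All members were reported, with up to 4 genes per other list by the smallest p in Molm-14 at 100 pM and between the controls, genes with shared exon bases, and the 3 genes nearest to the member with the largest change at 100 pM. The members and lists were chosen with earlier results of these data known. The script was tested on simulated data for the high doses against control. Of genes given a log2 change of 0.3, 64% were recovered for Molm-14 and 82% for HL-60. False calls were 19 of 198 for Molm-14 and 12 of 201 for HL-60. Changes of that size can thus be missed. Alternatives used DESeq2 1.42.0, limma-voom (limma 3.58.1), other scalings, filters and gene sets, and each library left out. One item is not reported here.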

Additional observations from a re-analysis of the deposited data

Results flagged for a closer look

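The response of HOXA10 to DSA differed between the lines by the test of the difference itself. At the high doses the change in Molm-14 minus that in HL-60 was -0.66 on the log2 scale (edgeR adjusted p = 9.48e-05), HOXA10 being lower in both Molm-14 libraries at 100 pM than in both controls and higher in both HL-60 libraries at 500 pM than in both controls. At the nearly equal doses the difference was -0.52 (adjusted p = 0.00226), and it missed the threshold without HL-60 112.7 pM replicate 2 (-0.42, adjusted p = 0.0639).

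MEF2C differed at the nearly equal doses, by -0.76 on the log2 scale (edgeR adjusted p = 0.0127), on 26 and 53 counts in HL-60 at 112.7 pM against 39 and 53 in HL-60 controls, in libraries of different depth. In limma-voom the MEF2C difference did not pass (adjusted p = 0.0712). Without HL-60 112.7 pM replicate 2 it was -0.45 (adjusted p = 0.325), and without HL-60 control replicate 2 it was -0.63 (0.0986). Among the neighbours in the cluster, HOXA13 differed at the high doses (-0.54, adjusted p = 0.0026) and the nearly equal doses (-0.45, 0.0178), HOXA11 at the nearly equal doses (-0.43, 0.00491), and HOXA11-AS at the high doses (-0.97, 0.00144) and the nearly equal doses (-0.75, 0.0186). The cause of these differences was not tested, and in neither comparison were the doses matched by their effect on viability. With 2 libraries per group, no library could be checked as standing apart from its group.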

How the results depend on the processing

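The number of members called at 11.1 pM against Molm-14 controls (0 and 0) and as lower in Molm-14 at 100 pM against control or 11.1 pM (1 each) was the same under all 10 settings and without any 1 library. Of the single log2 fold changes, 443 of 468 kept their direction and their side of the threshold over these settings. The 468 include all 10 members between the controls, where differences were large and every value stayed on its side. The 4 low-count members were left out for the responses of HL-60. For high against low dose and for the differences between the lines, only HOXA10 or MEF2C entered. The share is therefore not one for the DSA responses alone. In both controls 10 of 10 members had the same rank in TPM and FPKM.

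In Molm-14 at 100 pM, 0 members were higher in DESeq2 and with overlapping genes summed, and 2 in limma-voom, with library totals alone and with only the groups compared (0 to 2 when 1 library was left out). In HL-60 at 112.7 pM, 1 was higher in DESeq2, without the filter and with all gene types. It was also 1 with only the groups compared and with the replicate block. With limma-voom 0 were higher and 1 was lower, MEIS1, on 0 and 1 counts at that dose. The number higher was 3 with library totals alone, HOXA10 among them at an edgeR adjusted p of 0.0415. It was 0 to 2 when 1 library was left out. In HL-60 at 500 pM, 3 were higher with library totals alone (0 to 1 with a library left out). For 500 pM against 112.7 pM in HL-60, 1 was higher in limma-voom and with library totals alone, and 0 were lower in limma-voom and with only the groups compared (0 to 1 lower with a library left out). For the difference between the lines at the high doses, 2 were lower with library totals alone (0 to 1 higher with a library left out). At the nearly equal doses limma-voom gave 1 higher and 1 lower (0 to 2 lower with a library left out).

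Signs turned only in values that missed the threshold. With library totals alone these were HOXA7 at 11.1 pM (0.0078) and 100 pM (0.0029) and PBX3 at 100 pM (0.0012) in Molm-14, and in HL-60 PBX3 at 112.7 pM (0.0441) and MEF2C at 500 pM (0.0798). PBX3 at 112.7 pM was 0.0229 in DESeq2 and 0.0215 with RLE factors. With 1 library left out, the log2 fold change ran in Molm-14 at 11.1 pM from -0.0086 to 0.103 for HOXA5, -0.151 to 0.0477 for HOXA6, -0.0392 to 0.0193 for HOXA7 and -0.009 to 0.109 for HOXA9, and at 100 pM from -0.0744 to 0.011 for HOXA7, -0.0068 to 0.058 for MEIS1 and -0.0968 to 0.0283 for PBX3. In HL-60 it ran from -0.0578 to 0.013 for PBX3 at 112.7 pM, and at 500 pM from -0.0096 to 0.374 for HOXA4, -0.445 to 0.0055 for HOXA5 and -0.236 to 0.0358 for MEF2C.

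Library totals alone moved the median of all genes by 0.18 at 500 pM against HL-60 control, where 6304 genes were then higher and 3376 lower, while TMM gave 4802 higher and 5075 lower. They also gave 4231 higher and 2696 lower at 112.7 pM (TMM 3254 and 3683), 4831 and 2107 at 500 pM against 112.7 pM (TMM 3475 and 3591), and 2638 and 4538 for the difference between the lines at the high doses (TMM 4067 and 3373). In DESeq2 the near-equal dose difference between the lines had 1761 higher and 2302 lower genes, and with RLE factors 2248 and 2812, while edgeR with TMM had 2823 and 2241. The cause of the changed calls was not tested. In HL-60 the depth limits HOXA3, HOXA6, HOXA9 and MEIS1, of which no library held more than 16 counts. Same-numbered libraries showed little shared deviation (correlations of -0.083 to 0.178 over 11288 genes), and the main test used no pairing. With 2 libraries per group this cannot show whether same-numbered libraries were handled together. With the replicate block, HOXA7 at 112.7 pM had an adjusted p of 0.051 (log2 fold change 0.24), and no other member call changed.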
